A study of Mus musculus with 3 samples.

Results

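FOG2 peaks were found at 592 sites lying deep inside short genes of the embryonic mouse heart ventricle. A site was counted here when the peak summit lay inside the body of a protein-coding gene under 100 kb long and over 5 kb from every protein-coding gene end, on one of the 19 autosomes. Where gene bodies overlapped, the longest set the length. The rule used position only, and it selected 592 of the 6067 autosomal peaks, from 6166 peaks in all. They lay in 504 genes.

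The chromatin was taken from E12.5 ventricles, that is from midgestation embryos, and each biological replicate combined about 20 of them. Per the labels' protocols the embryos were Fog2flbio/flbio;Rosa26BirA/BirA, so they carried a tagged FOG2 and the biotin ligase BirA, and tagged FOG2 was recovered on streptavidin beads. The deposited peak list carries the word FLAG in its name, and which pulldown that word refers to is not given in the labels. The labels give the genotype as WT and the antibody as FOG2 for the 2 pulldown libraries, and no antibody for the 1 input library from the same kind of tissue, which served as control. Whole ventricles hold cardiomyocytes together with endocardial, epicardial, mesenchymal and blood cells, and expression was not measured, so the makeup of the tissue could not be checked against marker genes and no site can be placed in a cell type.

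FOG2 is the product of Zfpm2, a zinc finger protein that contacts DNA mostly through GATA factors and can raise or lower the activity of their targets. In the heart its main partner is GATA4, and loss of FOG2 in mice disturbs heart development. Sites inside a gene, away from its ends, are often distal regulatory elements or starts of shorter transcripts. A site may act on the gene that holds it or on another gene, and position alone does not tell which.

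The list was called on pooled libraries, so each peak had 1 value and no spread between replicates. Fold means the authors' peak caller's ratio of pulldown to control at the summit. The number of pulldown fragments behind each fold was recovered from the deposited fold and p-value, and its interval is an exact 95% Poisson interval that covers counting error only. Peaks are not replicates of each other, and no test was run between groups of peaks. Differences are therefore given as values with intervals.

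Sequence could be read where a summit fell in the RefSeq promoter table, which gives for each annotated start the 250 bases before it and 50 after. This was so for 3 of the 592 summits, at internal starts of Mylk3, Asb2 and Grap2. The windows are shown because they are sequence at the bound summit itself. They are written 5′ to 3′ along the gene (build GRCm38.p6), with capitals marking AGATAA or TGATAA, the core letters of GATA sites, on either strand.
Mylk3, chr8:85380992-85381291, minus strand: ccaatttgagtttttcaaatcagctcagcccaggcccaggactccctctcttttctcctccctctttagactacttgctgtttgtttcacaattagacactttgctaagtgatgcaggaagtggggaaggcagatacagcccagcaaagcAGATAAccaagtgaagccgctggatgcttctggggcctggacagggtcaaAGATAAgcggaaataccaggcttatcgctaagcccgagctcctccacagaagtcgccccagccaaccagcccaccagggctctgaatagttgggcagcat
Asb2, chr12:103338341-103338640, minus strand: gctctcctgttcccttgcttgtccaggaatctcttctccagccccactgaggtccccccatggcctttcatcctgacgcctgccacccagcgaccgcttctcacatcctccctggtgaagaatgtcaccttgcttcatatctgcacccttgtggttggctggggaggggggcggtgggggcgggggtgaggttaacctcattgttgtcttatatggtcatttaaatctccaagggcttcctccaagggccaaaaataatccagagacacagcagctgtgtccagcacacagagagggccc
Grap2, chr15:80623233-80623532, plus strand: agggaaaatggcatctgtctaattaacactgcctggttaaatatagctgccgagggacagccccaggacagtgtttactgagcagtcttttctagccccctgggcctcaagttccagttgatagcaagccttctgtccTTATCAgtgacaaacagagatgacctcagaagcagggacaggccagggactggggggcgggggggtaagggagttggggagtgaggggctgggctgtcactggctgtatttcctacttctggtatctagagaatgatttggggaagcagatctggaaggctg

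The Mylk3 window held 2 such matches, and the centre of the nearer one lay 5.5 bases from the FOG2 summit at position 209 of the window. Mylk3 encodes the cardiac myosin light chain kinase, and the peak there was 25.1-fold over control with 70 fragments (54.6 to 88.4). The Grap2 window held 1 match at position 139, centred 35.5 bases from the summit at position 177, under a 5.67-fold peak. Grap2 encodes an adaptor protein of T-cell receptor signalling. The Asb2 window, under a 5.80-fold peak with its summit at position 194, held no GATA match. Asb2 encodes a muscle and blood ubiquitin ligase subunit that targets filamins. These letters occurred in 18.6% of all 32851 promoter windows of the same length, so a match in a single window is a description and not evidence of a site. Other motifs searched on both strands were AGGTGT (T-box factors, in 13.7% of windows), CATTCC (TEAD, 14.7%), TATTTA (MEF2, 13.7%), CACTTNA (NKX2, 11.5%), TGANTCA (AP-1, 7.81%), CAGCTG (an E-box, 16.3%) and TGACAG (MEIS, 19.2%). Of these, the Asb2 window held 1 CAGCTG, the Grap2 window 1 TATTTA and 1 TGACAG on the opposite strand, and the Mylk3 window none. GC content was 52.0% at Mylk3, 56.7% at Asb2 and 53.0% at Grap2, beside a median of 52.7% over all windows.

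The strongest of all autosomal peaks lay beside a microRNA cluster. The 5 hairpins of Mir302b, Mir302c, Mir302a, Mir302d and Mir367 lie inside Larp7, and this cluster is known from pluripotent cells and early heart progenitors. The 141-fold peak spanned chr3:127545716-127546525 and covered the whole Mir367 hairpin (127545733 to 127545807), with its summit 0.404 kb away. The hairpins of the other members lay 0.522 to 0.910 kb from that summit, outside the interval. The 3p mature sequences of 4 of them follow, from RefSeq, with that of miR-208a and with the seed (bases 2 to 8) in capitals, to show which of these share a seed.
miR-302b-3p: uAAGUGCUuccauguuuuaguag
miR-302d-3p: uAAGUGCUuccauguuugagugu
miR-302c-3p: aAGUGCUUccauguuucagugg
miR-367-3p: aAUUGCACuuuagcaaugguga
miR-208a-3p: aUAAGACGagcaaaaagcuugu

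The 3p forms of miR-302b and miR-302d had the same seed, that of miR-302c-3p was the same letters shifted by 1 base, and miR-367-3p had another. Among the 5p forms, not printed here, those of miR-302b, miR-302c and miR-302d had 1 seed in common. The last sequence, miR-208a-3p, is a cardiac microRNA whose gene lies inside the myosin gene Myh6 and has a seed of its own. The Myh6 site (6.88-fold, 10 fragments, 4.80 to 18.4) had its summit 4.21 kb from Mir208a. Another peak near cardiac microRNA genes lay inside Mib1, which encodes a ubiquitin ligase for Notch ligands. That peak, chr18:10784245-10784579, was 22.1-fold over control, and its summit lay 1.01 kb from Mir1b, 1.04 kb from Mir1a-2 and 1.46 kb from Mir133a-1, 3 microRNA genes inside Mib1, of which Mir1a-2 and Mir133a-1 encode muscle microRNAs. In all, 20 sites (3.38%, Wilson 95% interval 2.20 to 5.16) lay within 10 kb of a microRNA gene, in 15 host genes, where 1.04% of all autosomal peaks and 1.73% of the eligible sequence did. Without Larp7 the share was 2.72% (1.68 to 4.37), an interval that holds the share of sequence. Among peaks deep in genes of 100 to 500 kb it was 0.371% (0.159 to 0.867). Within 2 kb lay 4 sites (0.676%, 0.263 to 1.72), where 0.247% of autosomal peaks and 0.355% of the eligible sequence did. Those 4 were 3 of the Larp7 sites and the Mib1 site, so without Larp7 1 of 588 sites (0.170%) lay that near. Among peaks deep in genes of 100 to 500 kb 0.149% did. The share of sequence near microRNA genes was not computed for those longer genes, at 2 kb or at 10 kb. The Larp7 and Mib1 sites are described here because of these neighbours, after their values were seen.

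Sites deep inside short genes were slightly less dense than peaks over the autosomes as a whole. The sequence that meets the rule came to 259 Mb, or 10.7% of the autosomal sequence from the first to the last protein-coding gene of each chromosome, and held 9.76% of the peaks (Wilson 95% interval 9.04 to 10.5). This is 2.28 summits per Mb (95% Poisson interval 2.10 to 2.48), against 2.50 over all autosomes (2.43 to 2.56). Sequence within 5 kb of gene ends had 2.15 (1.99 to 2.32) and sequence outside genes 2.29 (2.21 to 2.37). The deep sequence of genes of 100 to 500 kb held 3.55 per Mb (3.36 to 3.75), and this interval does not overlap that of the short genes. Assembly gaps and unmappable sequence were not left out of these lengths.

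Within short genes the density was lower in the shortest. Genes of 10 to 20 kb held 23 sites at 1.46 per Mb (0.928 to 2.20), and genes of 75 to 100 kb held 175 at 2.64 per Mb (2.26 to 3.06). The bins between were at 2.10, 2.08 and 2.41 per Mb in order of length. The median host gene of a site was 59.5 kb long, and the median site lay 15.0 kb from the nearest gene end, with the farthest at 49.2 kb. By chromosome the density ran from 1.36 per Mb on chromosome 7 (0.864 to 2.04) to 3.46 on chromosome 3 (2.54 to 4.60), which carries the 4 Larp7 sites.

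**Figure D1:**
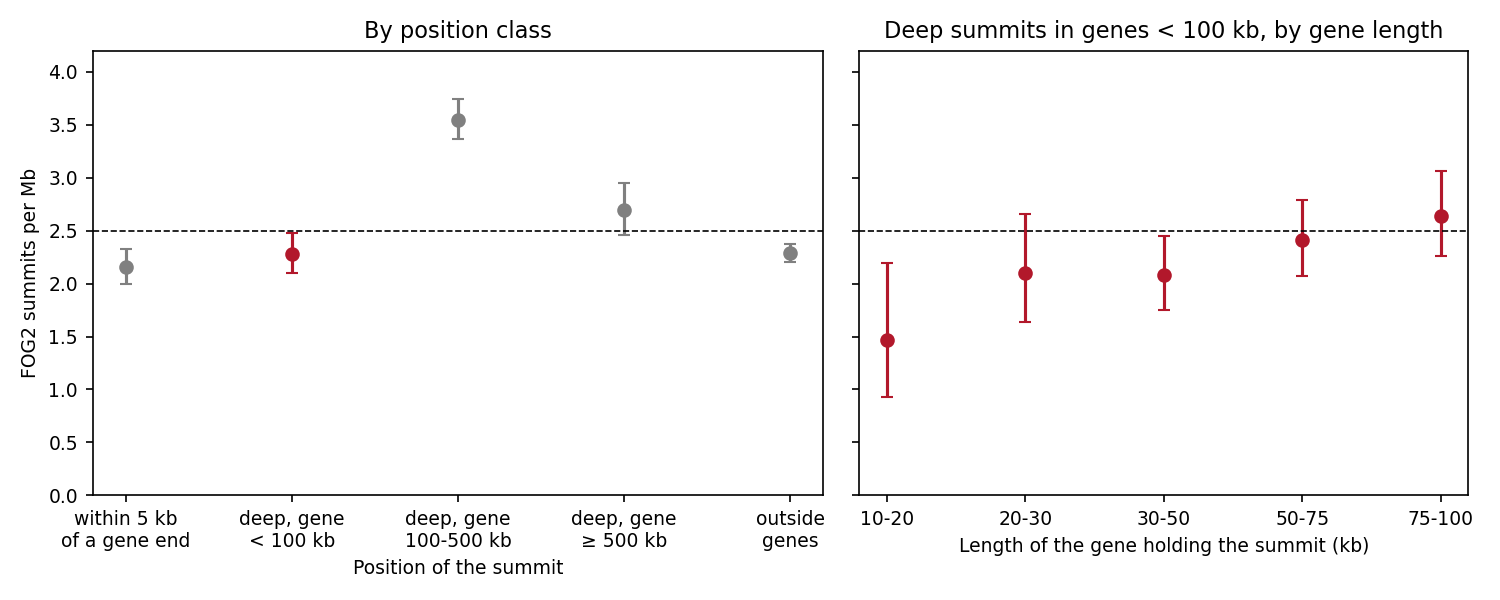
FOG2 summits per Mb of sequence by position class (left) and, for summits deep inside genes under 100 kb, by length of the gene (right). Points are counts over eligible length, bars are 95% Poisson intervals, and the dashed line is the autosomal density of 2.50. The short-gene class (red, 2.28) lies below genes of 100 to 500 kb (3.55), and its 5 length bins run from 1.46 to 2.64.

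The strength of the sites resembled that of other peaks. Their median fold was 6.30 (95% order-statistic interval 6.17 to 6.55; quartiles 5.31 and 8.61), against 6.39 over all autosomal peaks (6.37 to 6.55) and 6.48 deep in genes of 100 to 500 kb. In all, 95 sites (16.0%, Wilson 95% interval 13.3 to 19.2) reached 10-fold, where 16.8% of all autosomal peaks did. The median site rested on 12 fragments, as did the median autosomal peak, and 227 sites (38.3%) rested on 10 or fewer. A 12-fragment summit has a counting interval of 6.20 to 21.0, so single sites near the median could not be ranked. The median interval was 242 bp wide, and 44 sites (7.43%) were 500 bp or wider, against 9.46% of all autosomal peaks. The control level at the summit had a median of 0.828 and was highest at 4.26.

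At the top of the range the sites made up 4 of the 10 strongest autosomal peaks, 13 of the 100 strongest and 52 of the 500 strongest. All 4 of the first were in Larp7. The sites were 9.76% of all autosomal peaks, beside 13% of the 100 strongest and 10.4% of the 500 strongest. Outside Larp7 the strongest site was 50.5-fold, and the share reaching 10-fold was 15.5% (91 of 588).

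**Figure D2:**
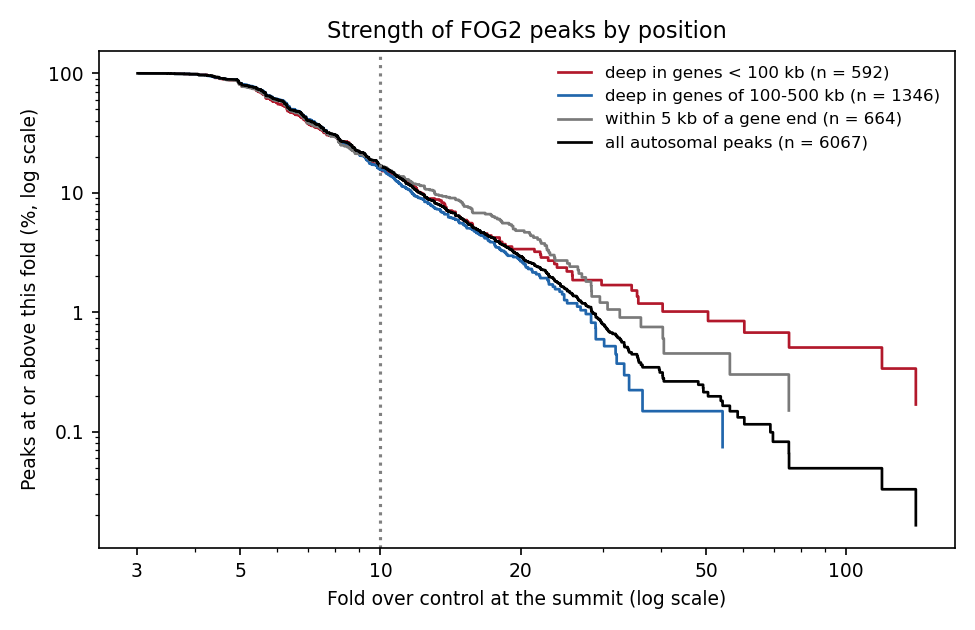
Share of peaks at or above each fold over control, both axes on a log scale, for sites deep inside genes under 100 kb (red), sites deep inside genes of 100 to 500 kb (blue), peaks within 5 kb of a gene end (grey) and all autosomal peaks (black). At the dotted line of 10-fold the red curve stands at 16.0% and the black at 16.8%, and the red curve reaches farthest, to the 4 Larp7 sites between 60.4- and 141-fold.

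Larp7 encodes a protein that binds and stabilises the 7SK RNA, through which it restrains transcription elongation. Its 4 sites were 141-fold (226 fragments, 197 to 257), 119-fold (191, 165 to 220), 75.4-fold (129, 108 to 153) and 60.4-fold (133, 111 to 158). They lay within 4.41 kb of each other in a gene of 16.6 kb. A further 2 summits of 75.3- and 36.3-fold lay in the same gene but within 5 kb of its end. All 6 summits in this gene were at least 36.3-fold, and control levels there were 0.608 to 1.22, against a median of 0.828 over the 592 sites. Exon positions were not used here, and whether the 6 summits coincide with exons was not tested.

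The 10 strongest sites lay in 7 genes of varied roles. After the 4 in Larp7 came Gyg, the glycogenin gene that primes glycogen synthesis (50.5-fold, 111 fragments, 91.3 to 134). Bcas1, a gene of myelinating cells, followed at 40.4-fold and held a second site at 5.31-fold. Myo5c, an unconventional myosin gene, had a 35.8-fold site and Bmt2, whose product senses S-adenosylmethionine, a 35.6-fold site. Slc15a1, a peptide transporter gene, had a 34.6-fold site and a second of 11.2-fold 0.968 kb away. Myh3, the embryonic skeletal myosin heavy chain gene, had a 29.8-fold site with 47 fragments (34.5 to 62.5). The counting intervals of Bcas1, Myo5c, Bmt2, Slc15a1 and Myh3 overlapped, and their order was not resolved at this depth.

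Most genes held a single site, and a few held several. Of 10766 protein-coding genes with any eligible sequence, 504 (4.68%) held a site and 63 (0.585%) held at least 2. In those 63 genes were 151 sites, and neighbouring sites in the same gene were a median of 4.75 kb apart (quartiles 1.49 and 13.7). Over all 592 sites, 117 (19.8%, 16.8 to 23.2) had another summit of the list within 10 kb, against 18.6% of all autosomal peaks.

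Jup held the most. It encodes plakoglobin, a catenin of desmosomes and adherens junctions that joins cardiomyocytes end to end. Its 6 sites spanned 8.83 kb of a 29.0 kb gene, whose eligible 19.0 kb would hold 0.0434 sites at the class-wide density. Jup is named because its count was the highest, so setting that count against its length gives no independent evidence. Both of the highest were 10.1-fold (15 fragments, 8.40 to 24.7), and 4 others were 8.70-, 8.70-, 6.93- and 4.96-fold. The fragment intervals of all 6 overlapped. A seventh summit of 6.93-fold lay 3.53 kb from the gene end and did not meet the rule.

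Myocd, the gene of the SRF coactivator myocardin that drives cardiac and smooth muscle genes, held 5. The strongest was 17.3-fold at chr11:65208071-65208441 (36 fragments, 25.2 to 49.8). Its neighbours on either side were 12.03-fold and 10.8-fold, the next 5.81-fold, and one farther off 7.68-fold. All 5 spanned 21.5 kb. Ddc, the gene of aromatic amino acid decarboxylase, held 4 sites between 4.89- and 9.56-fold. Rcsd1, the gene of an actin capping protein partner, held 4 between 4.64- and 5.86-fold on 7 to 12 fragments each.

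Genes with 3 sites numbered 12. The 5 with the highest fold were Prickle1, a planar cell polarity gene (strongest site 13.8-fold), Ppp1r14c, which encodes an inhibitor of protein phosphatase 1 (11.2-fold), Cbwd1 (9.85-fold), Heatr5b (9.26-fold) and Rgs12, a regulator of G-protein signalling (8.57-fold). Prox1, a transcription factor gene of cardiomyocytes and lymphatic endothelium, had 3 sites of 5.35-, 5.95- and 5.86-fold, all within 4.92 kb. Ldb3, the Z-disc gene also called Cypher, had 3 sites of 5.86-, 5.66- and 3.89-fold spread over 41.4 kb.

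**Figure D3:**
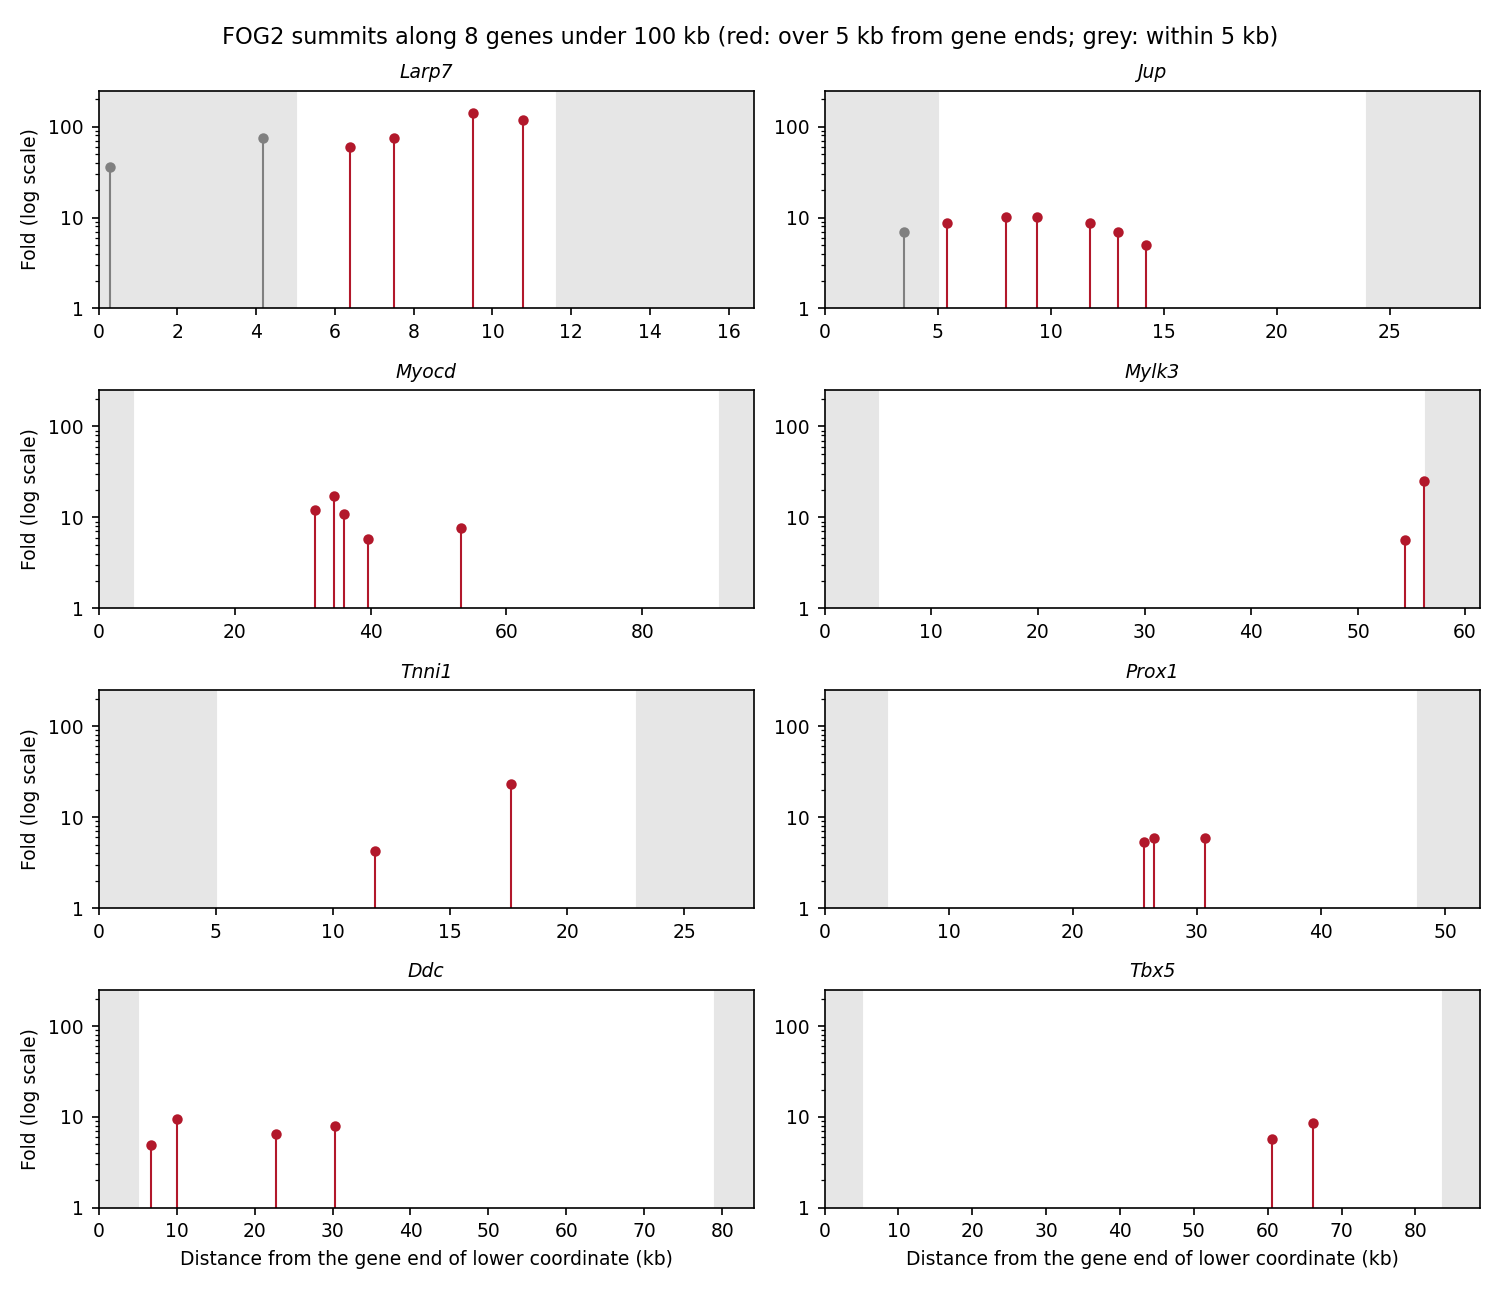
Fold (log scale) of every FOG2 summit against its distance in kb from the lower-coordinate end of 8 genes. Red summits lie over 5 kb from gene ends, grey ones nearer, and grey bands mark the outer 5 kb of each gene. Larp7 stands highest at 60.4- to 141-fold in red, Jup holds 6 red summits of 4.96- to 10.1-fold, and Myocd holds 5 of 5.81- to 17.3-fold.

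Genes of the lists used here held more of these sites than their length would hold at the density of the class. The 18 lists cover cardiac functions, general functions and other cell types, and hold 671 genes, all matched in the annotation, of which 344 had eligible sequence. Of these, 55 (16.0%, Wilson 95% interval 12.49 to 20.2) held a site, beside 4.68% of all eligible genes. They held 82 sites (95% Poisson interval 65.2 to 102), where their eligible length would hold 22.5 at the class-wide density. Without Larp7 the count was 78 sites in 54 genes. The lists were drawn up with earlier results of these data known, so a high count in them is no independent evidence, and they were compared by eligible length alone, not by expression or open chromatin.

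Contractile genes led. Of 28 eligible sarcomere and Z-disc genes, 11 (39.3%, 23.6 to 57.6) held 18 sites (10.7 to 28.4), where their length would hold 1.77. Mylk3 had the 25.1-fold site described above and a second of 5.66-fold 1.71 kb away. Tnni1, the troponin I gene used by the embryonic heart, had a 22.9-fold site at chr1:135800405-135800827 (48 fragments, 35.4 to 63.6) and another of 4.25-fold. Smyd1, a methyltransferase needed for myofibril assembly, had an 11.97-fold site (20 fragments, 12.2 to 30.9). Actn2, the gene of the Z-disc alpha-actinin, had 2 sites of 9.20- and 7.05-fold. The remaining genes were Myh6, Tmod1, Myom2, Fhl2, Ldb3, Myl2 and Myl4, whose strongest sites were between 4.92- and 6.88-fold. The median over the 18 sites was 5.94-fold, beside 6.30-fold over all 592 sites, and 3 of the 18 reached 10-fold.

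Junction genes held 12 sites (6.20 to 21.0) where their length would hold 1.68, in 6 of 23 eligible genes (26.1%, 12.55 to 46.5). Jup accounted for 6 of the 12. Pkp2, the gene of the desmosomal plakophilin 2, had 2 sites of 12.49-fold (27 fragments, 17.8 to 39.3) and 11.7-fold (32 fragments, 21.9 to 45.2). The desmosomal cadherin gene Dsc2 had a 6.21-fold site, the integrin gene Itgav a 6.54-fold site, Bin1, which shapes T-tubule membranes, a 5.55-fold site and Cav1 a 4.35-fold site. Jup, Pkp2 and Dsc2 all encode desmosome proteins.

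Transcription factor genes of the heart held 14 sites (7.65 to 23.5) where their length would hold 1.80, in 6 of 26 eligible genes (23.1%, 11.0 to 42.1). Myocd and Prox1 accounted for 8 of them. Gata4 had 1 site of 7.66-fold (13 fragments, 6.92 to 22.2), and Gata6, a related GATA factor gene, 1 of 8.02-fold (13 fragments). Zfpm1, the gene of the related protein FOG1, had 2 of 8.21- and 4.75-fold, and Tbx5, a T-box factor gene of the atria and left ventricle, had 2 of 8.64- and 5.66-fold, 5.49 kb apart. The fragment intervals at these GATA, FOG and T-box genes overlapped.

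Energy metabolism genes held 7 sites (2.81 to 14.4) where their length would hold 1.79, in 5 of 36 eligible genes (13.9%). Mb, the myoglobin gene, had an 11.3-fold site (19 fragments, 11.4 to 29.7). Ppara, a nuclear receptor gene of fatty acid oxidation, had 2 sites of 10.1- and 9.28-fold. Prkaa2, which encodes a catalytic subunit of AMP-activated kinase, had 2 of 7.28- and 4.56-fold. The glycolytic genes Pfkp and Hk2 had 1 each, at 6.58- and 6.32-fold.

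Calcium handling genes held 4 sites (1.09 to 10.2) where their length would hold 1.25, in 4 of 13 eligible genes (30.8%, 12.7 to 57.6). Jph2, which holds the sarcoplasmic reticulum to the T-tubule, had a 10.4-fold site, the calcium store gene Casq2 an 8.82-fold site, Srl a 5.52-fold site and Rcan1 a 4.96-fold site. Ion channel genes held 3 (0.619 to 8.77) against 0.949 in 3 of 18 genes, among them the potassium channel gene Kcnj5 (7.22-fold) and the connexin gene Gja5 (4.60-fold). In both lists the number by length lay inside the counting interval.

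Signalling and matrix genes were nearer to what length would hold. In the heart signalling list 4 of 37 genes held 5 sites (1.62 to 11.7) against 3.04. They were Pdgfrb, a receptor of mural cells (14.5-fold, 27 fragments), Tgfbr1 (7.54-fold), Tgfb2 (6.57- and 3.42-fold) and Fgf10 (6.54-fold). Matrix genes held 4 sites (1.09 to 10.2) against 2.25, in 4 of 25 eligible genes (16.0%). They were Tnc (7.40-fold), Vcan (5.12-fold), Thbs4 (4.96-fold) and Nid1 (4.51-fold). Corepressor genes (of NuRD, which FOG proteins recruit, and CtBP) held 2 (0.242 to 7.22) against 0.844, in 2 of 12 eligible genes (16.7%). These were Chd4 (10.1-fold) and Mta1 (6.93-fold). The cell cycle list held 1 (0.0253 to 5.57) against 0.715, at E2f3 (7.36-fold), in 1 of 9 eligible genes (11.1%). In each of these lists the number by length lay inside the counting interval. Of the housekeeping list only Larp7 held sites, and it had been added to that list with its peaks known. No site lay in the 10 eligible genes of the cytoskeleton list, whose length would hold 0.753.

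Lists of other cell types held few sites. Over the 6 lists of endothelium, epicardium with valve and mural cells, blood, hepatocytes, neurons and skeletal muscle, 8 of 94 eligible genes (8.51%, 4.38 to 15.9) held 8 sites, 1.53 times what their length would hold (0.659 to 3.01 from counting error). The 3 lists that describe cardiomyocytes (sarcomere, calcium handling and junctions) had 21 of 64 genes (32.8%, 22.6 to 45.0) with 34 sites, 7.23 times (5.01 to 10.1). Genes of other cell types with a site included Pecam1 (5.31-fold), Myh11 (9.92-fold), Wt1 (5.66-fold), Kit (4.41-fold), Tat (5.67-fold), Musk (8.19-fold) and Myh3. None of 13 eligible neuronal genes held a site, where their length would hold 1.09. Both comparisons rest on lists chosen with results known, and no test was made between them.

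**Figure D4:**
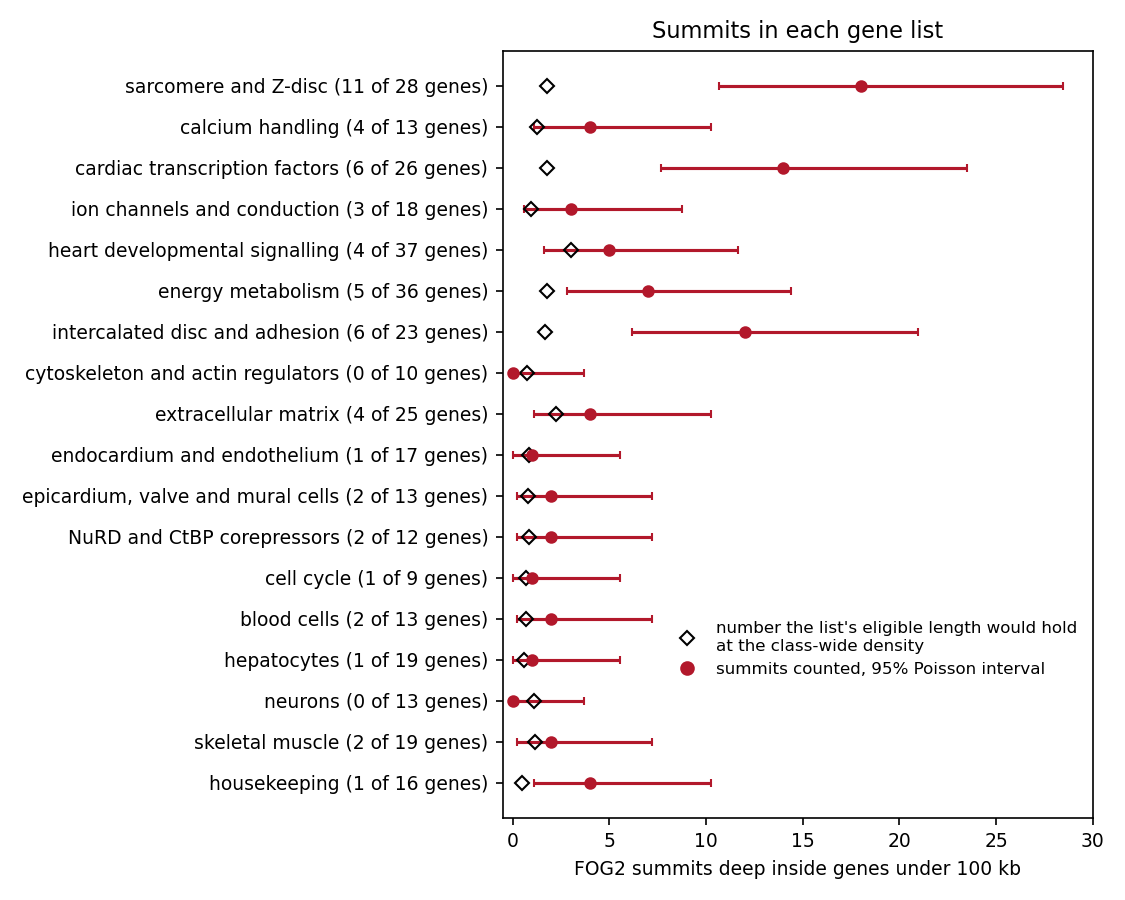
FOG2 sites deep inside genes under 100 kb in each of 18 gene lists (red points, bars are 95% Poisson intervals), with the number that the list's eligible length would hold at the class-wide density (open diamonds). The axis labels give the genes with a site among eligible genes. The sarcomere list (18 against 1.77), the transcription factor list (14 against 1.80) and the junction list (12 against 1.68) lie farthest to the right of their diamonds.

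Longer genes of the same lists held summits more often, as did long genes in general. A longer gene has more eligible sequence, so a higher share with a summit follows in part from length. The shares given here were not set against length and cannot be compared with those of the short genes. Of all 2097 autosomal protein-coding genes of 100 to 500 kb, 38.2% held a summit over 5 kb from gene ends. Of the 140 listed genes of that length, 81 (57.9%) did, among them 5 of 8 sarcomere genes (62.5%) and 9 of 13 junction genes (69.2%). Other lists were as high, with 12 of 18 matrix genes (66.7%), 5 of 7 energy genes (71.4%) and 3 of 3 epicardium, valve and mural genes. The cytoskeleton list, without a site in short genes, had 11 of 21 (52.4%). Blood and neuronal genes were lower, at 1 of 5 each.

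A small share of sites lay near annotated starts, but a larger one than the share of sequence near them. Distances to a start of any gene in the promoter table could be measured for 573 sites. Of these, 22 (3.84%, 2.55 to 5.74) lay within 1 kb of one, where 1.40% of the eligible sequence does. Over all autosomal peaks, those near gene ends included, the share was 3.82%. Deep in genes of 100 to 500 kb the share was 1.81% (1.21 to 2.71). The share of sequence near starts was not computed for those longer genes, so the 2 classes cannot be compared on this. In 13 of the 22 the start was of the host gene itself and in 9 of another gene only. Intervals reached into the 300-base window of a start in 8 cases. Besides Mylk3, Asb2 and Grap2 these included Csk, the gene of a kinase that restrains Src (5.60-fold, summit 105 bases downstream of the start), Fam78a (9.03-fold, 173 bases downstream) and Rusc2 (6.02-fold, 127 bases downstream). The myoglobin site lay 232 bases downstream of an internal Mb start. At Igf2r, an imprinted receptor gene, a 5.69-fold site lay 772 bases upstream of the start of Airn, the noncoding RNA that silences it.

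Noncoding genes covered 54 of the sites (9.12%, 7.06 to 11.7), among them Mir133a-1hg at the Mib1 site and Gm51018 at the strongest Larp7 site. Over all autosomal peaks 13.6% were so covered. The strand of the host was known for 450 sites, of which 219 (48.7%, 44.1 to 53.3) lay nearer to the 5′ end than to the 3′ end, where 50.1% of the eligible sequence lies.

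The limits of the rule cut through a continuous range of distances and lengths. Sites just inside the 5 kb limit included those in Gin1 (5.02 kb from a gene end, 13.5-fold) and Mgst1 (5.04 kb, 8.82-fold), and just outside it were summits in Calu (4.95 kb, 5.89-fold), Prokr1 (4.92 kb, 5.66-fold) and Dusp13 (4.91 kb, 15.7-fold). The longest hosts inside the 100 kb limit were Snx30 (99.6 kb, 7.46-fold), Spred2 (99.6 kb, 6.02-fold) and Ranbp3l (99.4 kb, 4.96-fold). Just over it were Map2k4 (100.1 kb, 5.07-fold), Ndufs4 (100.3 kb, 18.6-fold) and Cpe (100.6 kb, 7.56-fold).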

How the data were processed

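The authors deposited 1 list of FOG2 peaks for the pooled pulldown, filtered against blacklisted regions per the file's name. The submitters' processing notes list MACS2 2.1.1 along with Bowtie2 2.3.2, Picard and SAMtools 1.5, on mm10. No settings are given there. The deposited fold is a ratio of pulldown to control at the summit, the deposited −log10 p and −log10 q are the peak caller's, and the deposited display score was not used. Chromatin had been fixed in 1% formaldehyde for 10 minutes and sheared to 300 to 800 bp, per the labels' protocols. Streptavidin also recovers proteins biotinylated without the tag, and no pulldown from untagged hearts was analysed here.

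Summits were placed against RefSeq gene bodies (GRCm38.p6) with Python 3.11.15. Of 20665 autosomal protein-coding genes, 16457 had a strand, taken from the RefSeq promoter table. Distances to annotated starts cover the genes in that table. Fragments were solved from fold and p-value as MACS2 computes them, matching within 0.001 in 100% of peaks, and in 8 of the sites another whole number matched too. The recovery and the placement were tested on simulated data and returned the known answer in 100% of cases. Those data were made with the same formulas and the same rule, so this checks the code only. Intervals are Wilson for shares, exact Poisson for counts and order-statistic for medians, all 95%. Library depths are unknown, since no counts per library were used.

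The sites and the gene lists were chosen with earlier results of these data known. Named genes are the 10 sites of highest fold, genes with most sites, up to 4 genes per list by fold and the sites nearest the limits. A few items that this rule names are not reported here. Others, and the microRNA and internal start comparisons, were picked after their values were seen. No genome sequence was used here, so motifs were counted in the promoter windows and not, as planned, at all summits. The alternatives were other distance and length limits, stricter peaks and leaving out Larp7.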

Additional observations from a re-analysis of the deposited data

How the results depend on the processing

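Moving the limits of the rule changed how many peaks it took in, by construction. The share of autosomal peaks was 11.9% with gene ends over 2 kb away, 7.01% with gene ends over 10 kb away, 3.87% for genes under 50 kb and 15.2% for genes under 150 kb. The density was 2.48 per Mb over 10 kb from gene ends, 2.002 for genes under 50 kb, 2.58 for genes under 150 kb, 1.47 where −log10 q had to reach 5 and 1.85 where the fold had to reach 5. At that q limit the median fold was 7.56, the share at 10-fold 25% and the number of genes 329. Genes under 50 kb with a site numbered 210. Listed genes with a site numbered 21 for genes under 50 kb, 85 for genes under 150 kb and 13 for sites of at least 10-fold, the last chosen after seeing the data. The median fold stayed between 6.30 and 6.32 under the changed limits and without Larp7. Fragments in place of fold gave a ratio of the sites' median to that of all autosomal peaks of 1, against 0.985 by fold. Single lists were small, and 37 of their 108 alternative counts differed by over 1.5 times. The sarcomere list held 5 to 12 genes with a site and the transcription factor list 1 to 8. The ratio of sites near starts to sequence near starts was 3.15 within 500 bp, also chosen after seeing the data, against 2.75 within 1 kb. No paired analysis was possible because the list is pooled and carries no replicate. With 38.3% of sites on 10 or fewer fragments, differences in fold between single sites are mostly beyond this depth.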
